A study of Mus musculus with 9 samples.

Results

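In all, 40 ribosome biogenesis genes were followed across BCR/ABLp185+ leukemic cell lines that were wild-type (wt) or lacked STAT5A or STAT5B. The members were listed by name, from nucleolar, rRNA processing and RNA polymerase I genes described as driven by MYC. All 40 were found among the 50686 genes of the count tables and all 40 passed the filter on low counts. The RNA came from 9 libraries: 3 of a wt line, 3 of a Stat5a-/- line and 3 of a Stat5b-/- line, all from bone marrow of C57BL/6N background, transformed by the p185 form of the BCR/ABL oncogene and grown in culture without further treatment. The study gives an age range for the mice of its animal experiments but does not tie it to the donors of these lines. Each genotype was represented by 1 immortalized line in 3 technical replicates, so each p-value below measures the spread between libraries of 1 line. The genotype of a line and its clonal history cannot be told apart.

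A ribosome starts in the nucleolus, where RNA polymerase I copies the rRNA genes into a long precursor. Small nucleolar ribonucleoproteins (snoRNPs) then modify that precursor, and large assemblies of processing factors cut it, fold it and join it to ribosomal proteins to form the small and the large subunit. MYC, a transcription factor that drives cell growth, is known to switch on many genes of this pathway by binding, with its partner MAX, to the E-box CACGTG and to variants of it such as CACGCG. STAT5A and STAT5B are activated by BCR/ABL and bind TTCNNNGAA. The counts hold no measurement of binding by any of these factors.

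Promoter sequences show where such letters lie in the members. RefSeq promoter windows of the mouse GRCm38.p6 assembly, from 250 bases before to 50 bases after each start site, covered 36 members with 45 windows. Bop1, Fbl, Rrp12 and Npm1 were not matched. CACGTG, which reads the same on both strands, stood in 8 windows (17.8%) against 7.15% of all 32851 windows of the table. CACGCG, or CGCGTG on the other strand, stood in 15 member windows (33.3%) and in 9.27% of all windows. TTCNNNGAA, also the same on both strands, stood in 4 (8.89%) and in 8.30% of all. Several windows belong to the same gene and overlap, and the shares were not adjusted for the base composition of the windows, so they are descriptions. The members with CACGTG were Rrn3, Mybbp1a, Wdr43, Utp20, Tsr1, Ltv1, Nop2 and Pes1, and those with TTCNNNGAA were Polr1b, Rrn3, Nop58 and Noc4l. CACGCG or CGCGTG stood in Polr1c, Polr1e, Ubtf, Nhp2, Nop10, Nolc1, Mybbp1a, Ddx10, Nop16, Pes1, Ddx21, Noc2l and Ppan. Among these, Polr1c, Polr1e and Ubtf did not pass the test in Stat5b-/- against wt. Ubtf had the log2 fold change nearest 0 of all members there (-0.084). Of 9 CACGTG sites, 3 lay before the start and 6 within the 50 bases after it. The 3 sites before the start are shown because only these precede the start, and the sites of Nop10 and Nolc1 are shown because these members had the lowest log2 fold changes in the Stat5b-/- line. Each run is 30 bases, 5′ to 3′ on the strand of the gene, and capitals mark the E-box or its variant.
Nop2, chr6:125131811-125131840, + strand: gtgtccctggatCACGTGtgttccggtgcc
Rrn3, chr16:13780472-13780501, + strand: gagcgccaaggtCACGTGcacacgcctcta
Rrn3, chr16:13780639-13780668, + strand: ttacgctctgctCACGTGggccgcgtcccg
Nolc1, chr19:46075810-46075839, + strand: gcaggatgatgaCGCGTGtgggaccggaag
Nop10, chr2:112261938-112261967, + strand: aggttgttggcgCACGCGattgaagcggcg
The E-box of Nop2 began 60 bases before the start site, those of Rrn3 215 and 48 bases before it, the variant of Nolc1 25 bases before it, and that of Nop10 at base 25 after it. The members with CACGTG had a median log2 fold change of -0.52 in Stat5b-/- against wt and the 28 matched members without it -0.61. For CACGCG the medians were -0.60 in the 13 members with it and -0.55 in the 23 without, and for TTCNNNGAA -0.51 in 4 and -0.60 in 32.

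The libraries held between 11948136 and 19016396 counted reads. Levels are given as normalized CPM (counts scaled to a common library size), with TMM factors from 0.929 to 1.05, and a log2 fold change of 1 is a doubling. The knocked-out genes differed from wt in their own lines. Stat5a stood at 48.2, 36.01 and 45.3 CPM in wt, 11.8, 11.9 and 13.6 in Stat5a-/- and 87.1, 91.7 and 72.2 in Stat5b-/-, and Stat5b at 107, 103 and 106, 145, 124 and 156 and 72.3, 58.5 and 59.5. The log2 fold change of Stat5a was -1.80 (SE 0.14, adjusted p = 4.69e-07) in Stat5a-/-, and that of Stat5b was -0.73 (SE 0.11, adjusted p = 1.69e-04) in Stat5b-/-. Stat5a was higher in Stat5b-/- (0.96, adjusted p = 5.95e-05) and Stat5b was higher in Stat5a-/- (0.43, adjusted p = 0.00942), a call lost without Stat5a-/- replicate 1 or 3 and with library totals in place of TMM factors (from 0.0511 to 0.0593). All 10 B-lineage markers were detected, with summed levels of 4712 to 5019 CPM in wt, 6457 to 7161 in Stat5a-/- and 5822 to 6642 in Stat5b-/-. In each knockout line 6 of the 10 were higher than in wt and 2 were lower, beside 24.2% and 22.0% of all tested genes in Stat5b-/- and 19.8% and 16.3% in Stat5a-/-. Rag1, which cuts DNA to recombine antigen receptor genes, stood at 63.4 to 67.1 CPM in wt, 0.0902 to 0.244 in Stat5a-/- and 0.480 to 0.838 in Stat5b-/-. All 14 T-cell markers were measured too. They summed to 676 to 979 CPM in wt, 1032 to 1233 in Stat5a-/- and 1554 to 2307 in Stat5b-/-. Of the 14, 13 were higher in Stat5b-/- than in wt, beside 24.2% of all tested genes, and 5 in Stat5a-/-, beside 19.8%. The sums of the myeloid, erythroid and stromal markers in Stat5b-/- did not overlap with those of the other lines. The 9 myeloid markers summed to 4.10 to 6.46 CPM in wt, 4.80 to 6.36 in Stat5a-/- and 9.50 to 10.7 in Stat5b-/-, and the 7 erythroid markers to 11.6 to 13.8, 12.4 to 14.7 and 3.09 to 3.66 CPM. Only 2 of the 9 and 2 of the 7 passed the filter on low counts. Lyz2 had 43 to 129 reads in a library and Hbb-bt 23 to 200. No other myeloid marker had over 24 reads and no other erythroid marker over 18. These sums thus rest largely on Lyz2 and Hbb-bt. The 7 stromal and endothelial markers summed to 121 to 127 CPM in wt, 106 to 115 in Stat5a-/- and 201 to 216 in Stat5b-/-. Of these, Col3a1 had no read in any library and Pecam1 gave most of the reads. The part of these marker transcripts in the results below was not tested, and in such bulk RNA fewer cells of a type and less RNA per cell cannot be told apart.

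Myc itself (chr15:61985391-61990374, GRCm38 as all gene positions here) fell stepwise over the 3 lines. It stood at 1149.8, 1059 and 1165 CPM in the 3 wt libraries, at 719.7, 723 and 857 in Stat5a-/- and at 329.7, 305 and 247 in Stat5b-/-. No library of one line overlapped with a library of another. The log2 fold change against wt was -1.93 (SE 0.13, adjusted p = 5.29e-08) in Stat5b-/- and -0.55 (SE 0.12, adjusted p = 0.00287) in Stat5a-/-, and between the knockout lines it was -1.38 (SE 0.12, adjusted p = 2.26e-06), all by the quasi-likelihood test of edgeR, with p-values adjusted after Benjamini and Hochberg over 13852 tested genes. Mycn, which encodes the related N-MYC, moved the other way and rose by 1.20 in Stat5b-/- (adjusted p = 1.43e-05) and by 1.24 in Stat5a-/- (adjusted p = 1.22e-05), from a mean of 68.1 CPM in wt to 157 and 162. Max fell by 0.30 on the log2 scale in Stat5b-/- (adjusted p = 0.0149), and in Stat5a-/- its log2 fold change was -0.18 (SE 0.091, adjusted p = 0.139), past the threshold with library totals only (0.0137). The fall of Max in Stat5b-/- did not pass without wt replicate 3 (adjusted p = 0.0711) or Stat5b-/- replicate 2 (0.0658).

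The 40 genes together followed the order of Myc over the lines, over a smaller range. Their summed level was 9502, 9622 and 9546 CPM in wt, 8089, 8731 and 7774 in Stat5a-/- and 5571, 6342 and 6491 in Stat5b-/-. All wt sums lay above all Stat5a-/- sums, and these above all Stat5b-/- sums. Nucleolin, the member with the highest CPM, carried 22.1 to 28.4% of the sum, and without it the sums were 7109 to 7291 CPM in wt, 6037 to 6249.7 in Stat5a-/- and 4333 to 4794 in Stat5b-/-. As a share of all counted reads the members took 0.977 to 1.002% in wt, 0.722 to 0.818% in Stat5a-/- and 0.554 to 0.680% in Stat5b-/-.

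**Figure D1:**
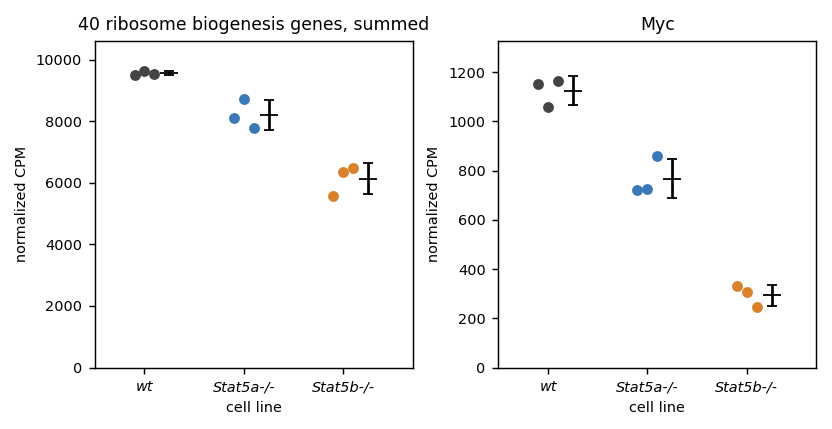
Normalized CPM of the 40 ribosome biogenesis genes summed (left) and of Myc (right) in each library, by cell line; points are libraries, and the bar beside them is the mean ± SD of 3. The sums lie at 9502 to 9622 in wt, 7774 to 8731 in Stat5a-/- and 5571 to 6491 in Stat5b-/-, while Myc spans 1058.6 to 1165, 720 to 857 and 247 to 330.

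In Stat5b-/- against wt, 34 of the 40 genes were lower at an adjusted p under 0.05 and none was higher. Over all 13852 tested genes, 22.0% were lower in this comparison and 24.2% were higher. The log2 fold change was negative for all 40 members, against 48.3% of all tested genes, with a median of -0.57 (all tested genes: 0.023) and a range from -1.19 to -0.084. In 33 members every Stat5b-/- library lay below every wt library, which held for 26.8% of all tested genes. At the limit of the study, which also asks for a fold change over 2, 3 members were lower (Nop10, Nolc1 and Npm1), and none was higher, beside 8.44% and 10.6% of all tested genes. None of the 40 fell as far as Myc. The members that did not pass the test were Polr1c, Polr1e, Ubtf, Fbl, Rrp12 and Bop1. Of the 34, 29 passed in the same direction in all 18 other fits (other scalings, filters and tools, and each library left out), and Rrn3, Nop58, Rrp9, Wdr12 and Wdr74 did not pass in at least 1.

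In Stat5a-/- against wt, 14 members were lower and none was higher, beside 16.3% lower and 19.8% higher among all tested genes. The median log2 fold change was -0.22 (all tested genes: 0.0099) and 34 of the 40 values were negative (all tested genes: 49.1%). Every Stat5a-/- library lay below every wt library in 18 members (23.7% of all tested genes) and above every wt library in 4 (25.5%). No member was over 2-fold lower or higher (all tested genes: 6.49% and 7.75%). The 14 were Polr1a, Polr1d, Rrn3, Dkc1, Nop10, Npm1, Nop14, Utp20, Tsr1, Nop2, Nop16, Ddx18, Ddx21 and Ppan. This count depended on the libraries and the scaling: it was 7 without wt replicate 3 (12.4% of all tested genes lower), 22 with library totals in place of TMM factors (24.8%) and 23, with 2 members higher, after an offset for GC content (20.7%). Polr1d, Nop14, Utp20, Tsr1, Nop2, Nop16 and Ddx21 passed in all 18 other fits, and the other 7 of the 14 did not.

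Tested directly, Stat5b-/- was lower than Stat5a-/- in 19 members and higher in none, beside 17.5% lower and 16.4% higher among all tested genes. The median log2 fold change was -0.32 (all tested genes: 0.020), and 2 members were over 2-fold lower, Nolc1 and Rrp1b, and none over 2-fold higher (all tested genes: 6.60% and 4.81%). In 22 members every Stat5b-/- library lay below every Stat5a-/- library, which held for 22.5% of all tested genes. The count of 19 fell to 11 without Stat5b-/- replicate 1 (15.9% of all tested genes lower), to 12 without Stat5a-/- replicate 1 (14.7%) or Stat5b-/- replicate 2 (15.1%), and to 9 with library totals only (13.5%). Of the 19, 8 passed in all 18 other fits: Polr1c, Nop10, Nolc1, Rrp12, Wdr43, Noc4l, Rrp1b and Noc3l. The comparisons of both lines with wt share the 3 wt libraries. The mean level was ordered wt, then Stat5a-/-, then Stat5b-/- in 33 members (20.4% of all tested genes). It was highest in Stat5a-/- in 6 members and lowest in Stat5b-/- in 39; the other one, Rrn3, was lowest in Stat5a-/-.

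**Figure D2:**
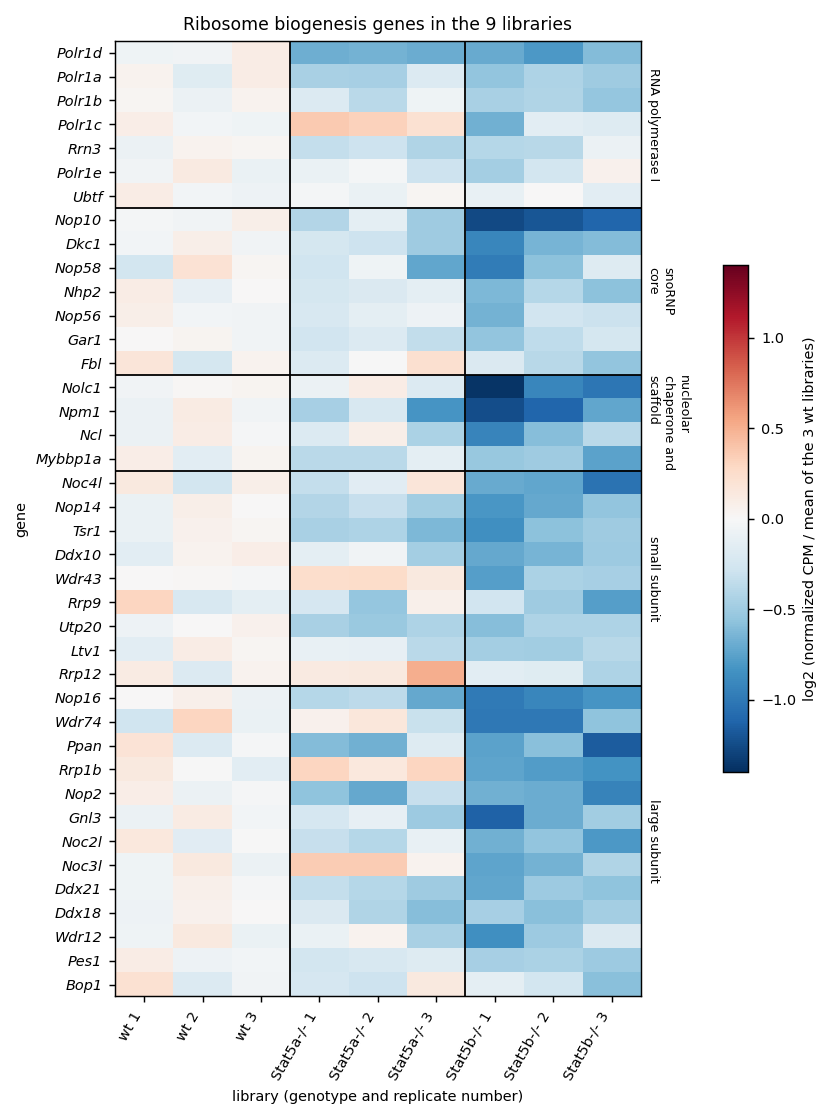
Level of each of the 40 genes (rows, by role) in each of the 9 libraries (columns), as the log2 ratio of normalized CPM to the mean of the 3 wt libraries; blue is lower and red is higher. The Stat5b-/- columns are blue in nearly all rows, and 6 rows, with Polr1c, Wdr43, Rrp12, Rrp1b, Noc3l and Fbl, have their highest mean in Stat5a-/-.

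The 7 genes of RNA polymerase I and its promoter factors had the median nearest 0 of the 5 role classes. In Stat5b-/- 4 of them were lower, with a class median of -0.32, and in Stat5a-/- 3 were lower, with a median of -0.20. The shares of all tested genes beside these and the following class counts are 22.0% lower in Stat5b-/- and 16.3% lower in Stat5a-/-. Polr1d (chr5:147077050-147111597), a subunit shared by RNA polymerases I and III, stood at 195, 197 and 217 CPM in wt, 127, 128 and 126 in Stat5a-/- and 125, 116 and 134 in Stat5b-/-. Both knockout lines lay below wt in every library and overlapped with each other. Its log2 fold change was -0.70 (SE 0.093, adjusted p = 4.36e-05) in Stat5b-/- and -0.68 (SE 0.093, adjusted p = 7.04e-05) in Stat5a-/-, and the difference between the knockout lines, -0.024 (95% interval -0.23 to 0.18), did not pass the test (adjusted p = 0.867).

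Polr1a (chr6:71909053-71984935), the largest catalytic subunit, stood at 171, 147 and 178 CPM in wt, 121, 120.3 and 145 in Stat5a-/- and 113, 123 and 117 in Stat5b-/-. All wt libraries lay above all others, and the log2 fold change was -0.49 (SE 0.11, adjusted p = 0.00243) in Stat5b-/- and -0.36 (SE 0.11, adjusted p = 0.0191) in Stat5a-/-, where it was not past the threshold without wt replicate 1 or 3 or Stat5a-/- replicate 1 or 2 (adjusted p from 0.0547 to 0.0945). Polr1b (chr2:129100995-129126594), which pairs with it at the core of the enzyme, was at 62.5, 57.7 and 63.1 CPM in wt, 53.6, 47.1 and 58.6 in Stat5a-/- and 44.7, 45.7 and 41.9 in Stat5b-/-. Every Stat5b-/- library was below every other library, with -0.47 (SE 0.11, adjusted p = 0.00271) against wt, while the value in Stat5a-/-, -0.20 (SE 0.11, adjusted p = 0.157), did not pass and 1 library overlapped with wt. It passed with library totals only (0.0198) and with a GC offset (0.0279).

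Rrn3 (chr16:13780699-13814840), the factor that brings the polymerase to the rRNA promoter, was at 107, 117 and 115 CPM in wt, 89.6, 92.2 and 84.1 in Stat5a-/- and 85.6, 86.5 and 107 in Stat5b-/-. Stat5a-/- was below wt throughout, at -0.35 (SE 0.11, adjusted p = 0.0207), and 1 Stat5b-/- library reached the wt range, at -0.28 (SE 0.11, adjusted p = 0.0455). Both calls of Rrn3 were lost without wt replicate 2 or 3 (adjusted p = 0.0683 and 0.0730 in Stat5a-/-), and that in Stat5b-/- also without replicate 1 or 2 of that line, with the replicate number as a block in the fit or without the filter on low counts (up to 0.155). Ubtf (chr11:102304560-102319742), which binds along the rRNA genes and keeps them open, overlapped in all lines, at 331, 298 and 293 CPM in wt, 302, 289 and 313 in Stat5a-/- and 285, 308 and 277 in Stat5b-/-. Its log2 fold change in Stat5b-/-, -0.084 (95% interval -0.29 to 0.12, adjusted p = 0.488), was the nearest to 0 of the 40. Polr1e, another subunit of the enzyme, had -0.21 (95% interval -0.51 to 0.087, adjusted p = 0.232), and passed without Stat5b-/- replicate 3 (0.0369).

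The core proteins of the snoRNPs had a median log2 fold change of -0.53 in Stat5b-/- and -0.26 in Stat5a-/-. Box H/ACA snoRNPs, which turn uridine into pseudouridine in rRNA, and box C/D snoRNPs, which methylate its ribose, each have a set of core proteins: Dkc1, Nhp2, Gar1 and Nop10 for the former and Fbl, Nop56 and Nop58 for the latter. All 4 H/ACA genes were lower in Stat5b-/-, with a median of -0.62, and 2 of 3 C/D genes were lower, with a median of -0.40. In Stat5a-/- 2 of the 4 H/ACA genes and none of the 3 C/D genes passed the test, beside 16.3% of all tested genes.

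Nop10 (chr2:112261926-112263269), the smallest of the H/ACA proteins, had the lowest log2 fold change of all members in Stat5b-/-. It stood at 272, 268 and 293 CPM in wt, 208, 252 and 196 in Stat5a-/- and 116, 121 and 128 in Stat5b-/-. The lines did not overlap, and the log2 fold change was -1.19 (SE 0.11, adjusted p = 1.54e-06) in Stat5b-/- and -0.34 (SE 0.11, adjusted p = 0.0243) in Stat5a-/-, with -0.85 (SE 0.11, adjusted p = 6.10e-05) between the knockout lines. Its call in Stat5a-/- was lost without wt replicate 3 or Stat5a-/- replicate 1 or 3 and with the replicate block (adjusted p from 0.0524 to 0.102). Dkc1 (chrX:75095854-75109777), the pseudouridine synthase, was at 153, 166 and 152 CPM in wt, 133, 128 and 111 in Stat5a-/- and 83.2, 100.2 and 103 in Stat5b-/-. These values did not overlap either, and the log2 fold change was -0.72 (SE 0.11, adjusted p = 1.44e-04) and -0.34 (SE 0.11, adjusted p = 0.0276). The latter missed the threshold without wt replicate 2 or 3 or Stat5a-/- replicate 3 and in both fits with the block (adjusted p from 0.0585 to 0.0993).

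Fbl (chr7:28169710-28179269), the methyltransferase fibrillarin, was low in these tables at 33.1, 24.8 and 30.4 CPM in wt, 25.7, 29.3 and 34.4 in Stat5a-/- and 25.6, 22.5 and 20.03 in Stat5b-/-. Its value in Stat5b-/-, -0.37 (SE 0.15, adjusted p = 0.0546), missed the threshold, though it passed in 11 of the 18 other fits (from 0.0138 to 0.0491), among them those without wt replicate 2, Stat5a-/- replicate 1 or 3 or Stat5b-/- replicate 1, and 1 library of that line lay in the wt range. Its partner Nop56 (chr2:130274430-130279313) was at 159, 146 and 145 CPM in wt, 129, 136 and 143 in Stat5a-/- and 94.97, 125 and 121 in Stat5b-/-. Every Stat5b-/- library was below every other one, at -0.40 (SE 0.11, adjusted p = 0.0104) against wt, and the Stat5a-/- value was -0.14 (SE 0.11, adjusted p = 0.348). Short genes on the same strand, such as those of small nucleolar RNAs, share exon bases with several members, and 4 of them share 2.44%, 2.10%, 1.76% and 1.71% of those of Nop56. Reads that fit more than 1 gene were left out of the counts.

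The nucleolar chaperones and scaffolds had the lowest median of the 5 classes in Stat5b-/-. All 4 were lower, with a median of -0.81, beside 22.0% of all tested genes, and 1 was lower in Stat5a-/-, near the share of 16.3% over all genes. Nolc1 (chr19:46075863-46085528), a phosphoprotein that accompanies snoRNPs in the nucleolus, stood at 702, 733 and 743 CPM in wt, 684, 777 and 638 in Stat5a-/- and 280.3, 384 and 359 in Stat5b-/-. Wt and Stat5a-/- overlapped, at -0.053 (SE 0.12, adjusted p = 0.775), and Stat5b-/- lay far below both, at -1.09 (SE 0.12, adjusted p = 1.21e-05) against wt and -1.04 (SE 0.12, adjusted p = 3.45e-05) against Stat5a-/-.

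Npm1 (chr11:33152287-33163206), nucleophosmin, a nucleolar chaperone mutated in many acute myeloid leukemias, was at 445, 510.3 and 455 CPM in wt, 339.6, 401 and 265 in Stat5a-/- and 198, 217 and 284 in Stat5b-/-. Wt was above both lines in every library, and the knockout lines overlapped through 1 library of each. The log2 fold change was -1.01 (SE 0.16, adjusted p = 1.89e-04) in Stat5b-/- and -0.49 (SE 0.16, adjusted p = 0.0281) in Stat5a-/-, which did not pass without wt replicate 2 or 3 or Stat5a-/- replicate 3 (adjusted p from 0.0598 to 0.0908). Ncl (chr1:86344719-86359400), nucleolin, was at 2211, 2513 and 2309.5 CPM in wt, 2051, 2481 and 1721 in Stat5a-/- and 1239, 1549 and 1806 in Stat5b-/-. Its Stat5b-/- libraries lay below wt, at -0.61 (SE 0.16, adjusted p = 0.00576), and its Stat5a-/- libraries overlapped with wt, at -0.17 (SE 0.15, adjusted p = 0.43).

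Mybbp1a (chr11:72441355-72451768), a nucleolar protein first found as a partner of MYB, had the smallest fall of this class, from 772, 651 and 744 CPM in wt to 499.7, 511 and 430.3 in Stat5b-/-, with 557, 557 and 657 in Stat5a-/-. Stat5b-/- was below all other libraries, at -0.59 (SE 0.11, adjusted p = 8.69e-04) against wt, and the Stat5a-/- value, -0.29 (SE 0.11, adjusted p = 0.0595), did not pass, though it did in 10 of the 18 other fits (from 4.74e-04 to 0.0497), among them those without wt replicate 2, Stat5a-/- replicate 3 or Stat5b-/- replicate 1 or 3.

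Of the 9 factors that build the small subunit, 8 were lower in Stat5b-/- and 3 in Stat5a-/- (all tested genes: 22.0% and 16.3%), with medians of -0.55 and -0.21. Noc4l (chr5:110648418-110653417), which works in a complex with Nop14, was at 282, 215 and 271 CPM in wt, 204, 230.0 and 287 in Stat5a-/- and 157, 155 and 125 in Stat5b-/-. Stat5b-/- was below both other lines, at -0.81 (SE 0.15, adjusted p = 5.74e-04) against wt, whereas wt and Stat5a-/- overlapped, at -0.091 (SE 0.15, adjusted p = 0.669), which passed with a GC offset (0.0299). Nop14 (chr5:34638536-34660148) was at 113, 127 and 121 CPM in wt, 90.6, 96.5 and 86.02 in Stat5a-/- and 68.6, 73.3 and 82.1 in Stat5b-/-. Here the 3 lines were separate, at -0.69 (SE 0.10, adjusted p = 1.02e-04) in Stat5b-/- and -0.40 (SE 0.10, adjusted p = 0.00647) in Stat5a-/-.

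For 2 other small subunit factors that were lower in both knockout lines the difference between these lines did not pass the test. Utp20, a large scaffold of the early precursor, had a log2 fold change of -0.48 in Stat5b-/- and -0.47 in Stat5a-/-, and the difference between the lines was -0.018 (95% interval -0.22 to 0.18, adjusted p = 0.9). Tsr1, a late factor that resembles a GTPase, had -0.64 and -0.50, with -0.13 between the lines (95% interval -0.39 to 0.13, adjusted p = 0.428); 32.3% of its exon bases are shared with Srr on the opposite strand, and the counting did not use strand. Rrp12 (chr19:41862852-41896153), which takes part in export of the precursors, was the small subunit gene nearest to 0, at 54.00, 43.7 and 51.6 CPM in wt, 54.4, 54.8 and 70.6 in Stat5a-/- and 44.8, 44.1 and 36.9 in Stat5b-/-. Its Stat5a-/- libraries were above all wt libraries, and the values against wt were 0.27 (SE 0.13, adjusted p = 0.137) in Stat5a-/- and -0.25 (SE 0.13, adjusted p = 0.152) in Stat5b-/-, the latter past the threshold with a GC offset (0.00820, and 0.0207 with the block).

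Of the 13 large subunit factors, 12 were lower in Stat5b-/- and 5 in Stat5a-/- (all tested genes: 22.0% and 16.3%), with medians of -0.67 and -0.27. Nop16 (chr13:54584185-54590090), a nucleolar protein of the early large subunit and a known MYC target, stood at 83.1, 86.4 and 78.03 CPM in wt, 62.6, 63.9 and 50.04 in Stat5a-/- and 41.4, 43.7 and 46.7 in Stat5b-/-. The lines did not overlap, and the log2 fold change was -0.91 (SE 0.11, adjusted p = 2.42e-05) in Stat5b-/-, -0.49 (SE 0.11, adjusted p = 0.00383) in Stat5a-/- and -0.42 (SE 0.11, adjusted p = 0.012) between them, the last not past the threshold with library totals only (0.0621). Wdr74 (chr19:8735827-8740624) had only 23 to 77 reads in a library, at 2.602, 3.89 and 2.95 CPM in wt, 3.29, 3.499 and 2.52 in Stat5a-/- and 1.58, 1.57 and 2.13 in Stat5b-/-. Its value in Stat5b-/-, -0.85 (SE 0.24, adjusted p = 0.0114), is uncertain, since 90.7% of its exon bases are shared with another annotated gene on the same strand and such reads were left out of the counts. Without wt replicate 2 its adjusted p was 0.0604.

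The genes Bop1, Pes1 and Wdr12 encode the PeBoW complex, which is needed to mature the rRNA of the large subunit. Bop1 (chr15:76452996-76477269) was at 151, 114 and 126 CPM in wt, 111, 106 and 143 in Stat5a-/- and 118, 109 and 87.3 in Stat5b-/-. All lines overlapped, and its log2 fold change in Stat5b-/- was -0.31 (SE 0.15, adjusted p = 0.103), with -0.12 (SE 0.15, adjusted p = 0.572) in Stat5a-/-. With a GC offset Bop1 passed in both lines (adjusted p = 0.00181 and 0.00373), and in Stat5b-/- also without the filter (0.0330). Pes1 had -0.47 (SE 0.089, adjusted p = 7.58e-04) in Stat5b-/-, and Wdr12 -0.50 (SE 0.17, adjusted p = 0.0251), lost without wt replicate 2 or Stat5b-/- replicate 1 or 2 (from 0.0679 to 0.0822). Among the helicases and GTPases of this class, Ddx21, which unwinds RNA at the rRNA genes, fell by 0.60 on the log2 scale in Stat5b-/- (adjusted p = 2.40e-04) and by 0.41 in Stat5a-/- (adjusted p = 0.00479). Gnl3, nucleostemin, fell by 0.75 in Stat5b-/- (adjusted p = 0.00129) and had -0.28 (SE 0.15, adjusted p = 0.176) in Stat5a-/-.

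**Figure D3:**
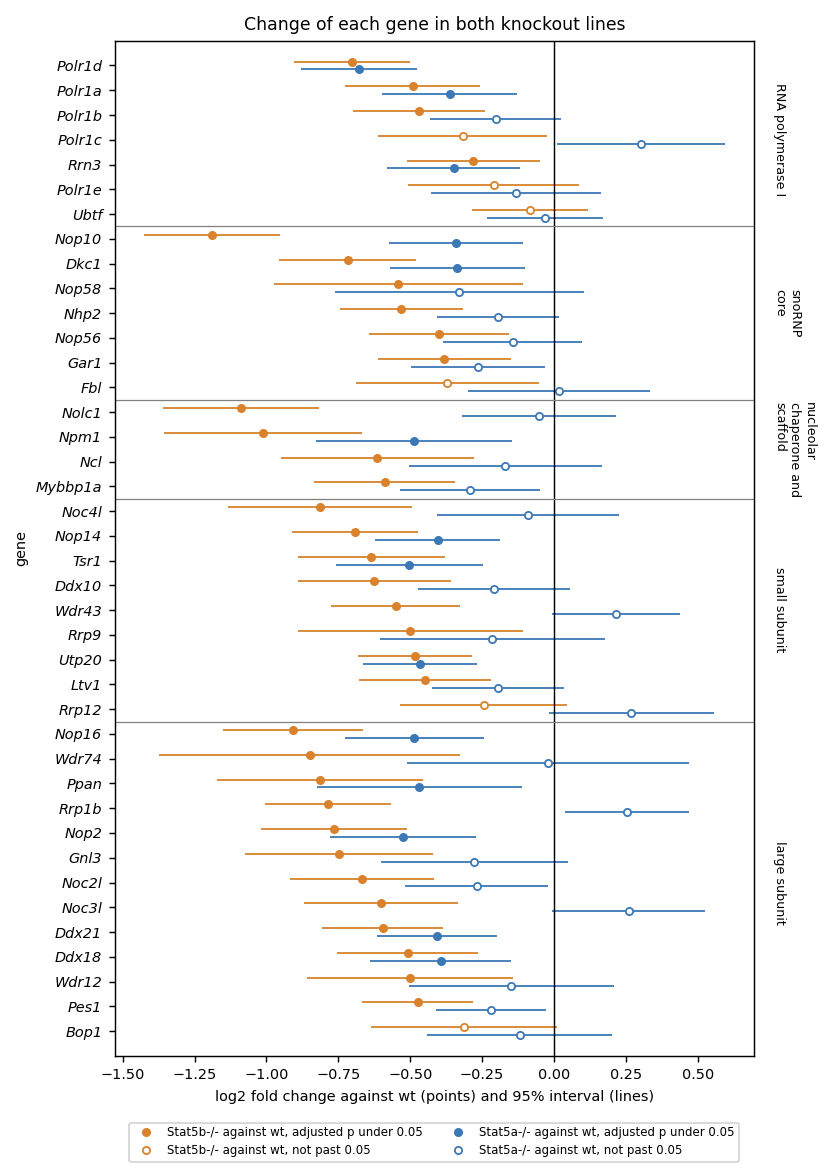
Log2 fold change against wt (x axis) of each gene (rows, by role) in Stat5b-/- (orange) and Stat5a-/- (blue); points are estimates over 3 libraries a line, lines are 95% intervals, and filled points passed an adjusted p of 0.05. All 40 orange points lie left of 0, 34 of them filled, and 14 blue points are filled.

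Per length the members covered a wide range of levels. In wt the highest per kilobase of exon were Nhp2 with 255 CPM per kilobase, Nop10 with 250.1 and Ncl with 230.1, and the lowest was Wdr74 with 2.59. In Stat5b-/- these levels were 176, 109.7, 150.3 and 1.45 CPM per kilobase.

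Of the 6 members whose mean was highest in Stat5a-/-, all but Fbl lie on chromosomes 17 and 19. Of the 40, 3 lie on chromosome 17 (Polr1c, Rrp1b, Wdr43) and 4 on chromosome 19 (Wdr74, Noc3l, Nolc1, Rrp12). In Stat5a-/- against wt none of these 7 was lower, and their median log2 fold change was 0.25; of the 33 members elsewhere 14 were lower, with a median of -0.28. Over all tested genes 16.3% were lower in this comparison, and 24 of 677 on chromosome 17 and 29 of 471 on chromosome 19. The 4 members whose Stat5a-/- libraries all lay above wt, Polr1c, Rrp1b, Wdr43 and Rrp12, were all among the 7. Tested genes on these chromosomes stood higher in Stat5a-/- as a whole: the median log2 fold change against wt was 0.53 over 677 genes of chromosome 17, 0.43 over 324 of chromosome 18, which holds no member, and 0.41 over 471 of chromosome 19, against -0.039 over 494 genes of chromosome 15, which holds Myc.

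Wdr43 (chr17:71616215-71659031), a small subunit factor, shows the pattern. It stood at 232, 234 and 228 CPM in wt, 275, 276 and 255 in Stat5a-/- and 135, 171 and 168 in Stat5b-/-. The Stat5a-/- line was highest in every library and Stat5b-/- lowest, with 0.22 (SE 0.10, adjusted p = 0.123) for Stat5a-/- and -0.55 (SE 0.10, adjusted p = 7.61e-04) for Stat5b-/- against wt. Rrp1b (chr17:32036100-32062865), a nucleolar protein of the large subunit, was at 107, 97.8 and 88.6 CPM in wt, 121, 108 and 121 in Stat5a-/- and 58.6, 57.1 and 54.6 in Stat5b-/-. The lines were separate, at 0.25 (SE 0.10, adjusted p = 0.0638) in Stat5a-/- and -0.79 (SE 0.10, adjusted p = 3.37e-05) in Stat5b-/- against wt. Without wt replicate 1 the adjusted p in Stat5a-/- was 0.0374.

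Polr1c, which like Polr1d serves RNA polymerases I and III, had 0.30 (SE 0.13, adjusted p = 0.0994) in Stat5a-/- and -0.32 (SE 0.14, adjusted p = 0.0735) in Stat5b-/-. In Stat5a-/- it passed in 2 of the 18 other fits, with only 2 genotypes in the fit (0.0431) and without Stat5b-/- replicate 1 (0.0395), and in Stat5b-/- in 4, with RLE factors and without Stat5a-/- replicate 3 or Stat5b-/- replicate 2 or 3 (from 0.0475 to 0.04999). Noc3l, of the early large subunit, had 0.26 (SE 0.12, adjusted p = 0.12) and -0.60 (SE 0.12, adjusted p = 0.00147). Between the knockout lines all 7 genes of these chromosomes were lower in Stat5b-/-, with a median of -0.83, and 12 of the 33 elsewhere, with a median of -0.27. Over all tested genes 17.5% were lower in that comparison, and on these chromosomes 309 of 677 genes of chromosome 17 (median -0.42) and 236 of 471 of chromosome 19 (median -0.43). Against wt, Stat5b-/- was lower in 5 of the 7 (median -0.60) and in 29 of the 33 (median -0.54). With the median of the tested genes of its own chromosome taken from each member, an alternative chosen after seeing the data, the median over the 40 was -0.62 in Stat5b-/- and -0.26 in Stat5a-/- against wt, and -0.35 between the lines.

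**Figure D4:**
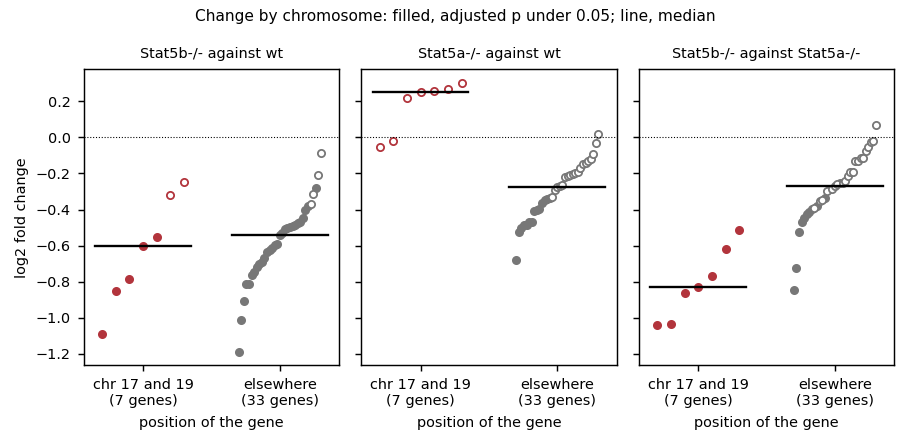
Log2 fold change of the 7 members on chromosomes 17 and 19 (red) and the 33 elsewhere (grey) in each of the 3 comparisons; each point is a gene, filled where its adjusted p was under 0.05, and the line is the median. In Stat5a-/- against wt the medians are 0.25 and -0.28, and in Stat5b-/- against wt they are -0.60 and -0.54.

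Replicates of 1 line differed in a way that ran with the base composition of the members. Their GC content, taken over the longest GENCODE M21 transcript of each gene, ran from 40.4 to 59.9%, with a median of 50.8% (all tested genes: 49.6%). Across the 40 genes, which share the libraries and are not independent, the log2 ratio of wt replicate 2 over replicate 1 had a Pearson correlation with GC content of -0.70, that of replicate 3 over 1 had -0.65 and that of 3 over 2 had 0.48. For the same pairs the correlations were -0.44, 0.73 and 0.77 in Stat5a-/- and -0.41, -0.70 and -0.68 in Stat5b-/-. Nop58, with a GC content of 41.03%, went from 139 CPM in Stat5b-/- replicate 1 to 240.5 in replicate 3, while Noc4l, with 55.3%, went from 157 to 125. The value of Nop58 in Stat5b-/- against wt was -0.54 (SE 0.20, adjusted p = 0.041), and it did not pass without wt replicate 2 or 3 or Stat5b-/- replicate 1 or 2 (from 0.0933 to 0.131). After an offset for GC content in each library, 37 members were lower in Stat5b-/- against wt, 23 in Stat5a-/- against wt and 25 between the knockout lines, beside 26.4%, 20.7% and 21.6% of all tested genes, and Wdr43 and Noc3l were higher in Stat5a-/- than in wt.

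**Figure D5:**
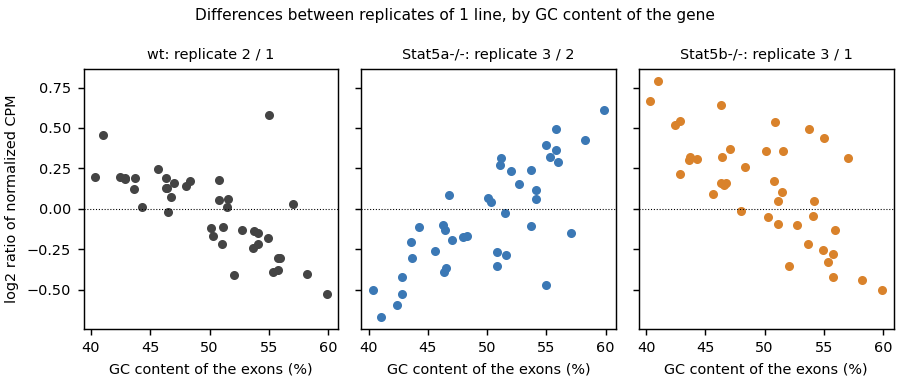
Log2 ratio of normalized CPM between 2 replicates of the same line (y axis) against the GC content of the longest transcript of each of the 40 genes (x axis, %), for wt, Stat5a-/- and Stat5b-/-. Each point is a gene. The pair shown in each line is the one with the strongest correlation of its 3 pairs: wt replicate 2 over 1 (-0.70), Stat5a-/- 3 over 2 (0.77) and Stat5b-/- 3 over 1 (-0.70).

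Other genes of the pathway were counted in the same way, and their counts are to be read beside the shares of all tested genes, 22.0% lower and 24.2% higher in Stat5b-/- against wt and 16.3% and 19.8% in Stat5a-/- against wt. Of 44 tested further small subunit factors, 27 were lower and none higher in Stat5b-/- against wt (median -0.38), and 6 were lower and 3 higher in Stat5a-/- (median -0.17), both smaller shares than among all tested genes. The largest fall was that of Esf1, a nucleolar factor of early rRNA processing, at -1.24 (SE 0.23, adjusted p = 7.16e-04) in Stat5b-/- and -0.96 (SE 0.23, adjusted p = 0.00502) in Stat5a-/-. Tbl3, a scaffold protein of the small subunit processome on chromosome 17, differed most between the knockout lines, at -0.55 (SE 0.15, adjusted p = 0.00733) in Stat5b-/- and 0.47 (SE 0.14, adjusted p = 0.0218) in Stat5a-/-, the latter lost in 7 of the 18 other fits, those without wt replicate 2 or 3 or Stat5a-/- replicate 2 or 3 among them (up to 0.0968).

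Of 45 further large subunit factors, 26 were lower and 1 higher in Stat5b-/- (median -0.40), and 14 were lower and none higher in Stat5a-/- (median -0.27). Mrto4, which holds a place on the maturing subunit, fell most in Stat5b-/-, at -0.92 (SE 0.11, adjusted p = 2.31e-05). In Stat5a-/- it had -0.41 (SE 0.11, adjusted p = 0.0119), where the lowest value of the list was -0.71. Nop53 was the one that rose, at 0.32 (SE 0.10, adjusted p = 0.0166), and it did not pass without the filter, wt replicate 2 or 3 or Stat5b-/- replicate 2 (from 0.0564 to 0.0826). Nle1, a late large subunit factor, differed most between the knockout lines (-0.94 (SE 0.16, adjusted p = 4.94e-04)). In that comparison 7 of the 45 were lower and none higher (median -0.091), beside 17.5% and 16.4% of all tested genes.

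Of 7 tested further polymerase I and promoter factors 1 was lower in Stat5b-/-, the polymerase subunit gene Cd3eap, at -0.60 (SE 0.12, adjusted p = 9.03e-04), and the median was -0.27. In Stat5a-/- the median was -0.43, and 4 were lower and 1 higher, Znrd1, a small polymerase I subunit gene on chromosome 17. It stood at 34.3, 31.8 and 36.4 CPM in wt, 106, 122 and 102 in Stat5a-/- and 39.6, 37.3 and 41.1 in Stat5b-/-, with a log2 fold change of 1.69 (SE 0.11, adjusted p = 4.94e-08) in Stat5a-/-. Between the knockout lines 1 of the 7 was lower and 2 were higher in Stat5b-/- (median 0.031), so the medians of this list did not follow the order wt, Stat5a-/-, Stat5b-/-. Of 11 tested subunits and cofactors of the RNA exosome, which trims rRNA precursors from their 3′ ends, 4 were lower in Stat5b-/- (median -0.24) and 3 in Stat5a-/- (median -0.21), each within 2 genes of the share among all tested genes. Exosc1, a cap subunit, fell most in Stat5b-/-, at -0.76 (SE 0.11, adjusted p = 6.87e-05), and had 0.063 (SE 0.10, adjusted p = 0.681) in Stat5a-/-.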

How the data were processed

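Poly(A) RNA of 3 BCR/ABLp185+ lines was sequenced by the authors (Lexogen SENSE kit, 50 bp single-end reads), trimmed with Trimmomatic, mapped with STAR at default settings to GENCODE M13 (GRCm38) and counted over exons with featureCounts 1.5.1, without strand and without reads that fit several places or genes. The deposited values are raw counts per gene, without normalization. Genotypes were taken from titles and genotype labels; the description field calls every sample wt.

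Symbols were matched through GENCODE M21 for 50376 of 50686 genes. All 9 libraries entered 1 fit in edgeR 4.0.16 (R 4.3.3) with TMM factors and filterByExpr, tested by glmQLFTest with Benjamini-Hochberg adjustment; genes were called at an adjusted p under 0.05. The SE is the size of the log2 fold change divided by the root of F. The fit was tested on simulated data. Alternatives were DESeq2 1.42.0, RLE factors, library totals only, 2 other filters, fits on the 2 genotypes compared, each library left out in turn, a replicate block, a GC offset (loess span 0.5), a fold limit of 2 and chromosomes 17 to 19 left out.

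Members and lists were chosen with earlier results of these data known. Named were Myc and, per role, the members past the test without overlap with the 2 largest falls in Stat5b-/-, the one nearest 0, well-known members and those running against their class, and up to 3 genes of each other list (largest fall, largest rise, largest difference between knockout lines). Utp20, Tsr1, Polr1e, Pes1, Wdr12, Ddx21, Gnl3, Nop58 and Nhp2 were chosen after their values were seen.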

Additional observations from a re-analysis of the deposited data

How the results depend on the processing

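With 1 line per genotype, the depth of these libraries limits the precision of Wdr74 and other low genes, and intervals cover the spread between libraries of 1 line. In Stat5b-/- against wt, the count of lower members was 31 to 36 with each library left out, 35 with DESeq2 and 33 with the replicate block, and Myc stayed past the threshold with the same direction in every alternative. In Stat5a-/- against wt, the count of lower members was 22 (median -0.36) with library totals only and 23 with a GC offset, beside 24.8% and 20.7% of all tested genes. It was 7 to 16 with each library left out, beside 12.4 to 18.4%. Library totals moved the median of all genes to -0.13 there and to 0.13 between the knockout lines. Members higher in Stat5a-/- numbered 1 with only the 2 genotypes in the fit (Polr1c), 2 with a GC offset and 2 with it and the replicate block, and 0 to 1 with each library left out. Between the knockout lines the count of lower members was 9 (median -0.20) with library totals only, beside 13.5% of all tested genes, and 12 without chromosomes 17 to 19. It was 11 to 19 with each library left out, beside 14.5 to 17.6%. With the fold limit of 2, lower members numbered 3, 0 and 2 in Stat5b-/- and Stat5a-/- against wt and between the lines. Why these counts moved was not tested, apart from the smaller number of genes or samples by construction.

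Named members with a value near 0 changed sign. In Stat5a-/- against wt Fbl was at -0.0013 with DESeq2, -0.12 with library totals, -0.0021 without a filter, -0.038 with a GC offset and -0.034 with that and the block, and with each library left out it ran from -0.13 to 0.11, Ubtf from -0.088 to 0.023 and Wdr74 from -0.14 to 0.16. Between the knockout lines Polr1d was at 0.092 with library totals, 0.023 with a GC offset and 0.019 with that and the block; Ubtf at 0.061, 0.044 and 0.044; and Rrn3 at -0.015 with a GC offset and -0.018 with that and the block. With each library left out, Polr1d ran from -0.074 to 0.025 and Rrn3 from -0.042 to 0.12. In Stat5b-/- against wt Fbl (adjusted p from 0.0138 to 0.177), Rrn3 (from 0.00383 to 0.155), Bop1 (from 0.00181 to 0.337), Rrp12 (from 0.00820 to 0.387) and Wdr74 (from 0.00500 to 0.0604) changed side of the threshold with the setting, besides members named with their results.

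Same-numbered libraries were on average not more alike than others: their deviations correlated at -0.088 over 9 pairs, and those of others at 0.044 over 18. Deviations were taken from the mean of each line, which ties these averages to each other, so they are not separate evidence. Same-numbered pairs ran from -0.45 to 0.22 and other pairs from -0.43 to 0.39. With the replicate block, lower members numbered 33, 11 and 15 in the 3 comparisons, beside 19.8%, 13.7% and 15.1% of all tested genes.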

Other observations

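The cytoplasmic ribosomal proteins, which the factors above assemble with rRNA, were counted too. Their summed level was 24669 to 26240 CPM in wt, 26324 to 28710 in Stat5a-/- and 19879 to 23153 in Stat5b-/-. Of 79 tested genes, 17 were lower and 2 higher in Stat5b-/- against wt (median log2 fold change -0.18), 3 were lower and 10 higher in Stat5a-/- against wt (median 0.091), and 27 were lower and 1 higher in Stat5b-/- against Stat5a-/- (median -0.30). Among all tested genes 22.0% were lower and 24.2% higher in the first comparison, 16.3% and 19.8% in the second and 17.5% and 16.4% in the third. In Stat5b-/- against wt, lower genes thus took about the share they have over all genes, and higher genes took a smaller share. Fewer genes than over all were called in Stat5a-/- against wt. Between the knockout lines, lower genes took a larger share than over all genes and higher genes a smaller one. Rpl28 had the largest fall in Stat5b-/-, at -1.02 (SE 0.16, adjusted p = 1.65e-04), and Rpl35a the largest rise, at 1.02 (SE 0.21, adjusted p = 0.00161). Rps2, on chromosome 17, stood at 423, 379 and 396 CPM in wt, 675, 581 and 713 in Stat5a-/- and 360.2, 290.2 and 258 in Stat5b-/-, with a log2 fold change of -1.11 (SE 0.13, adjusted p = 2.39e-05) between the knockout lines. Ribosomal protein genes have many processed copies in the genome, and reads that fit several places were left out of these counts, so their levels are uncertain.

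Of 22 other known MYC targets, 15 were lower and none higher in Stat5b-/- against wt (median -0.60), and 11 were lower and none higher in Stat5a-/- (median -0.35), beside 22.0% and 16.3% lower among all tested genes. Srm, which makes spermidine, fell most in Stat5b-/-. It stood at 871, 652 and 789.8 CPM in wt, 494, 509 and 641 in Stat5a-/- and 297, 297 and 234 in Stat5b-/-, and all 3 lines were separate. Its log2 fold change was -1.48 (SE 0.14, adjusted p = 2.80e-06) in Stat5b-/- and -0.49 (SE 0.14, adjusted p = 0.0156) in Stat5a-/-, the latter not past the threshold without wt replicate 1 or 3 or Stat5a-/- replicate 1 or 2 (adjusted p from 0.0529 to 0.0674). Mycl, the third MYC family gene, was low at a mean of 1.98 CPM in wt, 0.469 in Stat5a-/- and 0.728 in Stat5b-/-.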
